A study of Mus musculus
Mus spretus with 18 samples.

Results

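Limch1 (ENSMUSG00000037736) and Lmo7 (ENSMUSG00000033060) were followed through all tables of skipped exon (SE) events and through the table of transcript levels. The members are the events whose gene symbol is Limch1 or Lmo7, and the rows of these genes among transcript levels. They make up 93 of 125200 SE events and 2 of 38924 genes. Limch1 has 18 events around 13 alternative exons on chromosome 5, and Lmo7 has 75 events around 25 alternative exons on chromosome 14. Both genes lie on the plus strand, and coordinates are given in mm10. An event is an alternative exon with a pair of flanking exons, so events that share an exon or a junction share reads and are not independent of each other.

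The libraries come from F1 hybrids of a C57BL/6J mother and a SPRET/EiJ father, so every cell carries 1 allele of each species. Cortex, heart, kidney, lung, spleen and liver were taken from mice aged 8 weeks, with 2 libraries each, and embryonic stem cells (ESC) were 2 clones of the hybrid. The labels of the liver libraries give the maternal strain as C57BL/7J and C57BL/8J, while the study describes them as tissue of the same animals. Per the paper, the liver data come from an earlier study by the authors. It also states that cortex, heart and kidney were sequenced with longer reads than lung, spleen and ESC. Between such groups, tissue cannot be told apart from the study or the sequencing. A fibroblast line derived from the hybrids was treated for 4 h with 0.1 μM pladienolide B (PladB), a small molecule that binds the SF3B complex of the spliceosome, or with DMSO, with 2 libraries each. For the organs, the libraries of different tissues stem from the same animals, and the fibroblast libraries are cultures. The error therefore comes from the spread between 2 libraries of a group, moderated over all events or genes. PSI is the share of transcripts that include an exon, measured against the skipping junction of the event only. The question was how it differs between tissues, between alleles within a cell and after inhibition of splicing.

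Limch1 and Lmo7 are related genes whose proteins can carry a calponin homology domain and a LIM domain, a zinc-binding fold for contacts with other proteins. LIMCH1 binds non-muscle myosin II and promotes its activity in stress fibres. LMO7 is a scaffold at adherens junctions that binds afadin and α-actinin, and it also binds emerin of the nuclear envelope.

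Junction reads over all SE events ranged from 46558287 to 151755602 per library, with 10338947 to 48555783 on a single allele. All 28 defining markers of the 7 tissues had their highest level in the tissue of their label. The 2 ESC clones stood apart from each other for both genes, so tests of PSI across tissues that include ESC are also given without them. At 20 or more reads in both libraries of a group, 17 of the 18 Limch1 events and 69 of the 75 Lmo7 events were measured in at least 1 group. Limch1 had 12 such events in kidney, 11 in heart, 9 each in cortex and lung, 4 each in DMSO and PladB fibroblasts, 3 in spleen and 2 in ESC. Lmo7 had 56 in PladB fibroblasts, 50 in DMSO fibroblasts, 23 in ESC, 17 in cortex, 14 in lung, 13 in heart, 11 in kidney, 5 in liver and 2 in spleen.

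The level of Limch1 was highest in lung, with 283 and 267 TPM, and lowest in liver, with 0.154 and 0.193 TPM. Heart had 78.7 and 74.7 TPM, and the means of the remaining groups were 63.5 TPM ± 1.90 in cortex, 25.8 ± 0.0855 in kidney, 25.7 ± 5.78 in spleen and 4.52 ± 4.35 in ESC (SD, n = 2). The clones of ESC had 7.60 and 1.45 TPM. Between neighbours in this order, lung and heart, spleen and ESC, and ESC and liver differed (adjusted p = 0.0136, 0.000904 and 0.000129, limma on log2(TPM + 0.1)), whereas the differences of heart and cortex, cortex and kidney, and kidney and spleen did not pass the test (adjusted p = 0.689, 0.0587 and 1). The steps to and from ESC rest on clones that differ, and spleen and liver, the neighbours of ESC, differed from each other with an adjusted p of 1.65e-06. All pairs share an SE of 0.551 on the log2 scale, into which the spread of the ESC clones enters. Both cortex libraries, at 64.8 and 62.2 TPM, lay above both kidney libraries, at 25.7 and 25.9 TPM.

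Lmo7 followed another order, with its highest level in heart, at 120 and 114 TPM, and its lowest in spleen, at 1.42 and 1.38 TPM. Lung had 83.1 and 96.3 TPM, and the means were 36.9 TPM ± 3.61 in kidney, 32.7 ± 1.58 in cortex and 4.31 ± 0.0334 in liver (SD, n = 2). The ESC clones had 15.5 and 44.6 TPM, in the same order as for Limch1, so the clone with less Limch1 had more Lmo7. Lung and kidney, ESC and liver, and liver and spleen differed (adjusted p = 0.0124, 8.13e-05 and 0.00276, limma), whereas heart and lung, kidney and cortex, and cortex and ESC did not pass the test (adjusted p = 0.380, 0.703 and 0.458). Here too all pairs share an SE, of 0.365, that includes the spread of the ESC clones, and both heart libraries lay above both lung libraries. Spleen thus expressed Limch1 at 25.7 TPM with little Lmo7, and liver expressed little of either.

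Both genes varied across tissues (adjusted p = 4.55e-07 for Limch1 and 3.31e-07 for Lmo7, limma), as did 99.3% of all genes tested, so this call says little about them. Without both ESC libraries the adjusted p was 2.05e-10 for Limch1 and 1.63e-10 for Lmo7 (limma). Of the pairs of tissues, 17 of 21 were called for each gene, against 72.7% of all gene and pair combinations. The range between the highest and the lowest tissue was 9.97 on the log2 scale for Limch1 and 6.29 for Lmo7, and the median over all genes was 4.2. In tissue, fewer cells of a type and less RNA per cell cannot be told apart. The summed level of the endothelial markers Pecam1, Cdh5 and Kdr was also highest in lung, at 1372 to 1478 TPM against at most 372 TPM elsewhere. That of the smooth muscle markers Myh11, Acta2 and Des reached 1409 to 1517 TPM in heart and 720 to 764 TPM in lung among the tissues. In heart most of that sum was Des, at 1267 TPM. Myh11 and Acta2 were lower in heart, at 34.3 and 162 TPM, than in lung, at 113 and 461 TPM. The sum of the epithelial markers Epcam, Cdh1 and Krt8 was highest in ESC, at 677 to 1296 TPM. It was 509 to 512 TPM in lung and 3.01 to 3.79 TPM in heart. That of the leukocyte markers Ptprc, Cd52 and Tyrobp was highest in spleen, at 1799 to 2225 TPM. The part of these cell types in the levels of Limch1 and Lmo7 was not tested.

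**Figure D1:**
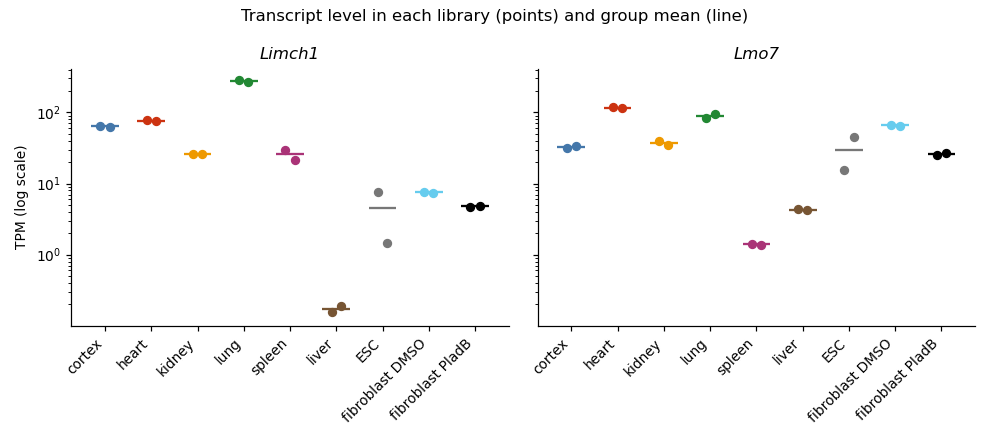
Transcript level of Limch1 and Lmo7 in TPM on a log axis, for the 7 tissues and the 2 groups of fibroblasts. Each point is a library and each line the mean of 2 libraries. Limch1 peaks in lung at 275 TPM and Lmo7 in heart at 117 TPM, and the ESC clones lie far apart for both.

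Lists of genes around both proteins were described in the same way. For non-muscle myosin II and its regulators, 11 of 11 genes varied across tissues, with ranges from 1.60 for Rock1, a kinase that activates myosin, to 8.79 for the heavy chain Myh14 on the log2 scale. The list of cell junction genes, with partners of Lmo7, had 13 of 13 genes called and ranges from 2.27 for β-catenin (Ctnnb1) to 11.9 for E-cadherin (Cdh1). The 5 Mical genes, which also code for a calponin homology and a LIM domain, were all called, with ranges from 3.04 for Micall1 to 6.79 for Mical1. The median ranges of the lists were 4.14, 3.52 and 5.81, beside 4.2 over all genes. Among 22475 genes, the log2 levels most like those of Limch1 over the 14 tissue libraries included those of Lrrc8a, Zdhhc1, Pgf and Rabac1 (r from 0.974 to 0.976), and those most like Lmo7 were Fzd6, Kifc3, Rassf8, Prob1 and Best3 (r from 0.912 to 0.948). Between Limch1 and Lmo7 themselves r was 0.541. These are descriptions over tissues that share animals.

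Inclusion differed between tissues for 3 of the 10 Limch1 events and 7 of the 20 Lmo7 events that could be tested, 10 of 30 in all, and 9.48% of the 47963 events of the series were called by the same rule. An event was called at an adjusted p under 0.05 (quasi-binomial model) and a difference of at least 0.1 in mean PSI between the highest and the lowest tissue. All 3 called exons of Limch1 and 4 of the 6 called exons of Lmo7 have a length that is a multiple of 3, against 6 of 13 and 9 of 25 among all alternative exons of each gene. Among the 20 events that were not called the largest difference was 0.0388. Of these, 6 of the 7 in Limch1 and all 13 in Lmo7 had a PSI of 0.9 or more in every measured tissue, and the remaining event, a 92 bp exon of Limch1, had at most 0.00956. Between pairs of tissues, 53 of 185 combinations of event and pair were called (6.95% over the series), and heart took part in 24 of them, cortex in 22, kidney in 16, lung in 15, ESC in 14, liver in 11 and spleen in 4.

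Limch1 changed most at a 36 bp exon (chr5:66993143-66993178), which was included less in kidney than in cortex, heart, lung and spleen. Its PSI was 0.507 and 0.381 in the kidney libraries, 0.957 and 0.977 in cortex, 0.976 and 0.973 in heart, 0.995 and 0.997 in lung and 0.996 and 0.997 in spleen. Kidney lay below every other library of these tissues, and the difference of 0.552 between spleen and kidney was called (adjusted p = 6.76e-12 over 5 tissues). All 4 pairs that include kidney were called, and none of the other 6. ESC was not tested, since 1 clone had under 20 reads, and its clones had 0.779 from 37 reads (exact 95% interval 0.591 to 0.912) and 0.551 from 14 reads. In the fibroblasts, which were not part of this fit, it was 0.971 and 0.958 under DMSO.

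A 69 bp exon (chr5:67025305-67025373) was rarely used. Its PSI was 0.0990 and 0.118 in kidney, 0.0899 and 0.0936 in lung, 0.0246 and 0.0246 in heart and 0 and 0.00244 in cortex. Both kidney libraries lay above both lung libraries, a difference of 0.0169 that did not pass the test (adjusted p = 0.904), and cortex lay below every other tested tissue. The ESC clones, not tested, had 0.0850 from 113 reads and 0 from 12. The difference between kidney and cortex was 0.107 (adjusted p = 1.77e-08 over 4 tissues), close to the limit of 0.1, and it was 0.0977 and no longer called without kidney replicate 2.

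A 78 bp exon (chr5:67036026-67036103) was used in heart, with a PSI of 0.133 and 0.159, and in cortex, with 0.0952 and 0.110. All libraries of kidney, lung and spleen were at 0.0137 or below. ESC was not tested, since 1 clone had under 20 reads, and its clones had 0.141 from 93 reads (exact 95% interval 0.0891 to 0.210), as high as heart, and 0.0769 from 7 reads. The largest difference, between heart and spleen, was 0.142 (adjusted p = 5.29e-11 over 5 tissues). Heart differed from kidney, lung and spleen by 0.136 or more, and the differences of cortex from them, at 0.0925 to 0.0984, passed the test on p but not the limit on size.

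In Lmo7, 5 of the 7 called events concern exons that lie next to each other. A 282 bp exon (chr14:101885291-101885572) was measured against the junction that skips it, the 720 bp exon after it and the 30 bp exon (1032 bp). Its PSI was 0.927 and 0.947 in cortex and 0.895 and 0.871 in heart. The PSI was 0.0985 and 0.109 in lung, 0.0256 and 0.0159 in liver and 0.0492 and 0.254 in ESC. Cortex and heart lay above every library of the other tissues, and the difference between cortex and liver was 0.916 (adjusted p = 4.30e-13 over 5 tissues, 1.23e-17 without both ESC libraries). The junction from the exon before it to the 30 bp exon skips the 282 bp and 720 bp exons (1002 bp). Measured against that junction, the 282 bp exon had 0.296 and 0.274 in heart. Lung had 0.0295 and 0.0185 and ESC 0.0116 and 0.00904 (adjusted p = 2.93e-12). Without both ESC libraries the difference between heart and lung against that junction was 0.261 (adjusted p = 8.37e-15). Both measures count the junction into the 282 bp exon, which all transcripts with this exon share. Neither is therefore a share within transcripts with or without the 30 bp exon.

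The next exon, of 720 bp (chr14:101886937-101887656), was measured against the same junction to the 30 bp exon. Its PSI was 0.872 and 0.919 in cortex and 0.270 and 0.237 in heart. Lung had 0.00813 and 0.00459 and ESC 0 and 0.00260, so these 4 tissues fell into 3 levels, and 5 of 6 pairs were called. The difference between cortex and ESC was 0.894 (adjusted p = 2.25e-14), and without both ESC libraries that between cortex and lung was 0.889 (adjusted p = 3.86e-18). A longer form of this exon, with 955 bp (chr14:101886937-101887891), had a PSI of 0.208 and 0.222 in cortex and at most 0.0104 in the other 3 tissues. This call (adjusted p = 0.00203, and 0.000188 without both ESC libraries) rests on 32 and 22 reads in cortex. It was lost without cortex replicate 1 (adjusted p = 0.0848), and with a minimum of 50 reads cortex is not measured and the largest difference is 0.00553. Without the 955 bp form the lengths of the exons in this stretch are multiples of 3. The 720 bp and 955 bp forms are each set against the same skipping junction only, so neither PSI is a share of all transcripts.

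A 30 bp exon (chr14:101888677-101888706) was the only called exon of Lmo7 measured in all 7 tissues besides the 109 bp exon below. It was measured against the junction that also skips the 282 bp and 720 bp exons. Its PSI was 0.962 and 0.957 in heart, 0.903 and 0.923 in cortex, 0.853 and 0.967 in ESC, 0.783 and 0.862 in lung, 0.812 and 0.490 in spleen, 0.449 and 0.438 in liver and 0.105 and 0.114 in kidney. Kidney lay below every other library, as for the 36 bp exon of Limch1. The difference of 0.85 between heart and kidney was called (adjusted p = 1.27e-15, and 2.53e-22 without both ESC libraries), as were 12 of 21 pairs. Spleen, with 28 and 42 reads, differed from heart and kidney only. With other flanking exons, the mean PSI of the same exon was 0.982 to 0.998 in the tissues measured.

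A 57 bp exon (chr14:101915688-101915744) was lowest in heart, with 0.263 and 0.30. Cortex had 0.809 and 0.785, kidney 0.928 and 0.943 and ESC 0.964 and 0.935. Liver and lung included it almost fully, with 1 and 0.981 and with 0.992 and 0.993. Heart lay below all other libraries and cortex below all but heart, and the difference of 0.711 between lung and heart was called (adjusted p = 1.41e-13, and 8.69e-18 without both ESC libraries), as were 9 of 15 pairs, all of them with heart or cortex.

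A 109 bp exon (chr14:101931172-101931280), whose length is not a multiple of 3, had a PSI of 0.443 and 0.390 in cortex and of 0.684 and 0.816 in spleen. Heart, kidney, lung and liver had means of 0.974 or more. The ESC clones had 0.910 and 0.269, so that they differed from each other by more than the highest and the lowest tissue did. The dispersion of the event was 20.1, the highest of all called member events, and the difference of 0.564 between kidney and cortex was called with ESC (adjusted p = 1.75e-09) and without both ESC libraries (adjusted p = 4.98e-18). Cortex differed from heart, kidney, lung and liver and not, by the test, from spleen and ESC (adjusted p = 0.386 and 0.994), and the other 4 called pairs set ESC against heart, kidney, lung and liver.

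**Figure D2:**
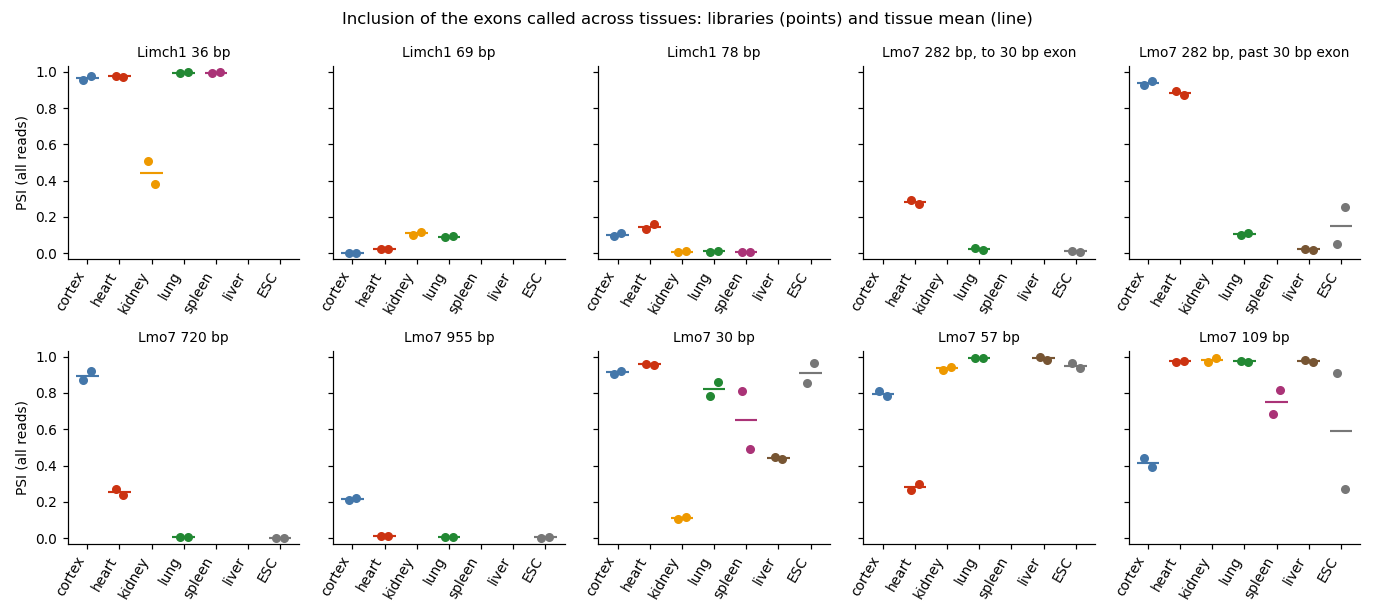
PSI from all reads for the 10 events called across tissues, with the gene and the exon length above each panel. For the 282 bp exon of Lmo7, the words after the length name the skipping junction. Points are libraries and lines the mean of 2, and tissues with under 20 reads in a library are left out. Kidney is lowest for the 36 bp exon of Limch1 and the 30 bp exon of Lmo7, and cortex and heart are highest for the 282 bp and 720 bp exons of Lmo7.

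The 2 genes share exon lengths. Exons of 71, 70, 107, 31, 253, 109 and 103 bp come in this order along both, with others between them, while exons of 93 and 105 bp come in opposite orders. The 109 bp exon of Limch1 had 0.976 in cortex, the lowest of 4 tissues, and 0.982, 0.995 and 1.000 in heart, kidney and lung. That event passed the limit on adjusted p (0.00222) and not that on size, and the match with Lmo7 was noticed after its values were seen. Over the 5 tissues in which each was measured, the events of other genes most like the 36 bp exon of Limch1 were in Dab2, Fam149b, Ptges3l, Mta1 and Golga1 (r from 0.990 to 0.998, of 3844 events). Those most like the 282 bp exon of Lmo7 were in Mef2a, Eya3, Lman2l, Dst and Exoc7 (r from 0.996 to 0.997, of 3081 events). These are the best matches over 5 points that share animals, and a description only.

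Allelic PSI was compared within each tissue, where both alleles share the same nuclei. Of 111 combinations of event and tissue with 20 reads on each allele in each library, 6 were called, 2 of 36 for Limch1 and 4 of 75 for Lmo7. Over the series, 2.62% of events were called in cortex, 2.94% for heart, 2.37% for kidney, 3.03% for lung, 2.7% for spleen, 1.75% for liver and 0.726% for ESC. In the quasi-binomial model 0 member events were called in kidney, spleen, liver and ESC, where 20, 1, 4 and 21 were tested and 3, 0, 1 and 0 had an unadjusted p below 0.05.

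The largest allelic difference in tissue was that of the 78 bp exon of Limch1, which the study itself had picked as an example, so its size here is not independent evidence. In heart, the C57BL/6J allele had a PSI of 0.0160 and 0.00731 and the SPRET/EiJ allele 0.506 and 0.561. The alleles did not overlap, and the ΔPSI (C57BL/6J minus SPRET/EiJ) was -0.522 (adjusted p = 2.29e-12). In cortex the alleles had 0.00633 and 0.00340 against 0.226 and 0.239, a ΔPSI of -0.228 (adjusted p = 6.21e-07). Kidney, lung and spleen had -0.0174, -0.0169 and -0.00611, with SPRET/EiJ higher in both libraries of each. Of these the lung value passed the limit on adjusted p (0.000354) and not that on size. Over the 5 tissues the mean PSI ranged from 0 to 0.0116 on C57BL/6J and from 0.00769 to 0.534 on SPRET/EiJ. The test of whether the allelic difference itself varied between tissues, made on the log odds of inclusion, did not pass (unadjusted p = 0.0411, adjusted p = 1).

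By that interaction test 1 of the 26 member events was called (6 had an unadjusted p below 0.05), against 0.252% of the series, and it was the 69 bp exon of Limch1 (adjusted p = 0.0152). In heart it had 0.00377 and 0.00469 on C57BL/6J and 0.0443 and 0.0427 on SPRET/EiJ, a ΔPSI of -0.0392 (adjusted p = 0.00348). Kidney had 0.0702 and 0.103 against 0.0506 and 0.0659, a ΔPSI of 0.0284 in the opposite direction that did not pass the test by itself (adjusted p = 0.623), and lung and cortex had -0.0116 and -0.00106. All of these differences are under 0.1. The call was lost without heart (adjusted p = 1).

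In Lmo7, heart had a lower inclusion of the 720 bp exon on C57BL/6J, with 0.155 and 0.115, than on SPRET/EiJ, with 0.361 and 0.359. This ΔPSI of -0.225 was called (adjusted p = 4.03e-07). In heart the 282 bp exon, against the junction to the 30 bp exon, had 0.246 and 0.208 on C57BL/6J and 0.361 and 0.372 on SPRET/EiJ. Its ΔPSI of -0.140 was also called (adjusted p = 0.000627). Both events are measured against the same skipping junction, so they share those reads. Against the junction that also skips the 30 bp exon, the 282 bp exon in heart had allelic means of 0.880 and 0.885. That ΔPSI of -0.00561 did not pass the test (adjusted p = 0.944, quasi-binomial model). In cortex, the 720 bp exon had 0.882 and 0.880 as means of the alleles. In lung, the 282 bp exon was measured against the junction that also skips the 30 bp exon. It had 0.2 and 0.172 on C57BL/6J and 0.0523 and 0.0807 on SPRET/EiJ, a ΔPSI of 0.119 (adjusted p = 0.0493). The 30 bp exon had 0.861 and 0.911 against 0.722 and 0.823, a ΔPSI of 0.114 (adjusted p = 0.0130). These also share a skipping junction. Neither was called when all residual degrees of freedom were counted (adjusted p = 0.118 and 0.224), and by single libraries they ranged from 0.0912 to 0.148 and from 0.0881 to 0.139. Against the junction to the 30 bp exon, the 282 bp exon in lung had a ΔPSI of 0.00808 (adjusted p = 0.742, quasi-binomial model).

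Other differences of at least 0.1 did not pass the test. The 30 bp exon in liver had 0.719 and 0.516 on C57BL/6J and 0.215 and 0.369 on SPRET/EiJ from 40 to 67 reads per allele (adjusted p = 0.317), and the 109 bp exon in cortex had 0.325 and 0.259 against 0.474 and 0.378 (adjusted p = 0.264). The 30 bp exon was higher on C57BL/6J in the mean of all 6 tissues measured, by 0.0114 in heart to 0.326 in liver, and it was called in lung alone. Its interaction between tissues had an adjusted p of 1.

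**Figure D3:**
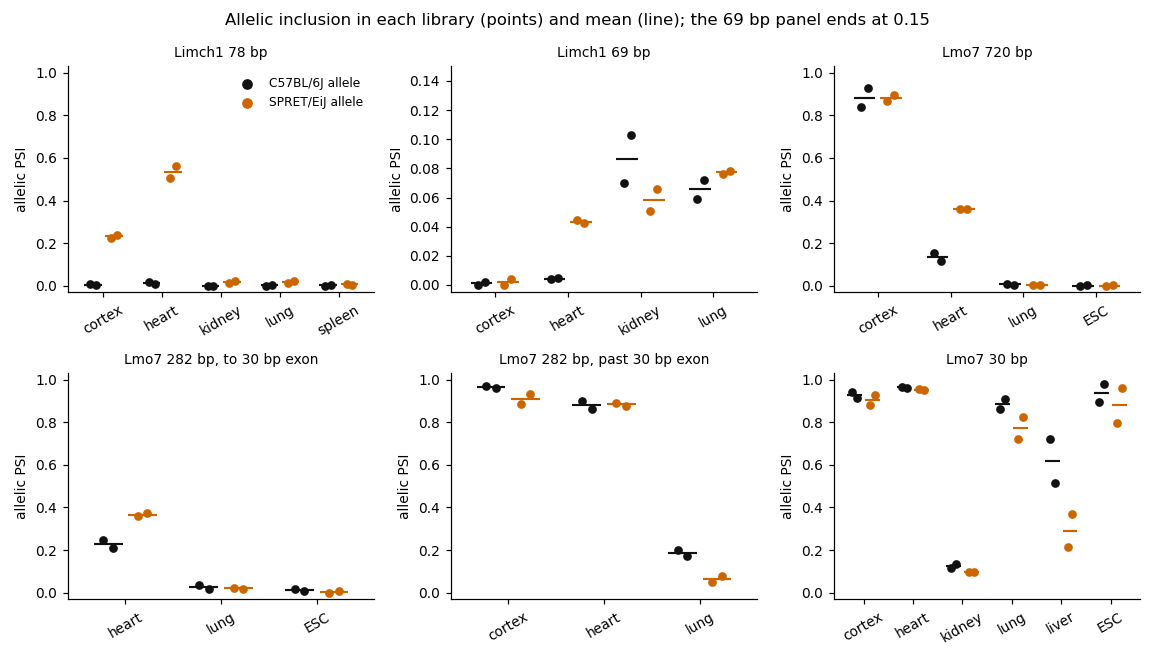
Allelic PSI of 6 events per tissue, with black points for the C57BL/6J allele and orange points for the SPRET/EiJ allele, 2 libraries each, and lines for their mean. The axis of the 69 bp panel ends at 0.15. For the 282 bp exon of Lmo7, the words after the length name the skipping junction. The alleles of the 78 bp exon of Limch1 lie at 0.0116 and 0.534 in heart, and those of the 720 bp exon of Lmo7 at 0.135 and 0.360.

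After PladB both genes had lower TPM, as most genes did, and the direction of both turned when libraries were centred on their median gene. Limch1 had 4.72 and 4.85 TPM against a mean of 7.50 ± 0.0395 (SD, n = 2) under DMSO, a log2 difference of -0.64 ± 0.064 (SE, adjusted p = 0.000403, limma). Lmo7 had 25.2 and 26.6 TPM against 66.7 and 64.4, a log2 difference of -1.34 ± 0.049 (SE, adjusted p = 9.76e-06), but centred on the median log2 TPM of each library the changes turned to 0.83 (adjusted p = 9.40e-05) for Limch1 and 0.13 (adjusted p = 0.05003, not called) for Lmo7. Of all genes, 88.8% were called and 73.1% were lower, and the median gene changed by -1.15. After centring, 35.6% were lower and 51.6% higher. Relative to the median change of -1.15, Limch1 stood 0.51 above it and Lmo7 0.19 below it, so whether Lmo7 fell more or less than other genes depends on the reference.

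Of the listed genes, 5 of 10 tested for myosin II were lower and 4 higher, from -3.22 for Rock1 to 0.79 for the light chain Myl12a, with a median of -0.15 on the log2 scale. In the list of cell junction genes 9 of 13 were lower and 2 higher, from -3.78 for the tight junction scaffold Tjp1 to 0.25 for α-actinin 4 (Actn4), with a median of -0.46. Of the Mical genes 5 of 5 were lower before and 4 of 5 after centring, from -2.81 for Micall2 to -1.56 for Mical3, with a median of -2.07. After centring, 3 myosin genes were lower and 7 higher, and 5 junction genes were lower and 7 higher. The summed level of the fibroblast markers Col1a1, Col1a2, Dcn and Pdgfrb was 2350 to 2452 TPM under DMSO and 2320 to 2419 TPM after PladB.

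Of the 54 member events tested between PladB and DMSO, 9 were called, all in Lmo7 and all with lower inclusion after PladB. Over the series, 8.4% of events were called and 8.23% were called with lower inclusion. The 4 Limch1 events changed by -0.00511 to 0.0206, among them the 36 bp exon, with 1 and 0.970 after PladB. Of the 41 Lmo7 events not called, 37 were lower after PladB, and 11 passed the limit on adjusted p with a change under 0.1. The called events comprise 5 exons and 6 skipping junctions, and 8 of the 9 lie in the 5′ stretch of the gene, between the exon that ends at chr14:101730225 and the exon that starts at chr14:101880803.

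That stretch holds alternative exons of 71, 70, 107, 31 and 114 bp. Several exons precede the 107 bp exon in the controls, where 677 and 652 reads of DMSO replicates 1 and 2 joined it to the 70 bp exon, while 268 and 283 joined it to an exon ending at 101840590 and 221 and 286 to one ending at 101838730. A PSI below is therefore the share against the named skipping junction only. The junction from the exon ending at 101730225 to the one starting at 101880803, which skips all 5 (393 bp, a multiple of 3), had 137 and 154 reads after PladB and 0 under DMSO. Against it the 71 bp exon (chr14:101794241-101794311) had a PSI of 0.559 and 0.545 after PladB and of 1 in both control libraries, a ΔPSI of -0.448 (adjusted p = 9.98e-39). The 114 bp exon (chr14:101876806-101876919), against the same junction, had 0.673 and 0.665 (ΔPSI = -0.331, adjusted p = 5.90e-44). The 31 bp exon (chr14:101875452-101875482) had a ΔPSI of -0.258 against the junction that skips 4 exons and of -0.257 against that which skips the 31 bp and 114 bp exons (adjusted p = 9.42e-11 and 9.31e-15). The other 4 events there, of the 71, 107 and 114 bp exons against other junctions, changed by -0.141 to -0.134. For the 107 bp exon (chr14:101840872-101840978) against the junction from the 70 bp exon to the exon at 101880803, the call was lost without PladB replicate 2 (ΔPSI = -0.0836).

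The 30 bp exon fell from 0.983 and 0.982 under DMSO to 0.685 and 0.666 after PladB (ΔPSI = -0.307, adjusted p = 7.41e-39). Its skipping junction had 23 reads in each control library and 116 and 128 after PladB. Against that junction the 282 bp exon had 0.0830 and 0.0376 after PladB and 0.179 and 0.233 under DMSO, which did not pass the test (ΔPSI = -0.146, adjusted p = 0.0555, and 0.0221 without PladB replicate 1). Just inside and outside the limit of 0.1 lay the 114 bp exon at -0.134 and at -0.0996, against different junctions. When PSI was taken from raw counts without effective lengths, 5 of the 9 events were called.

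**Figure D4:**
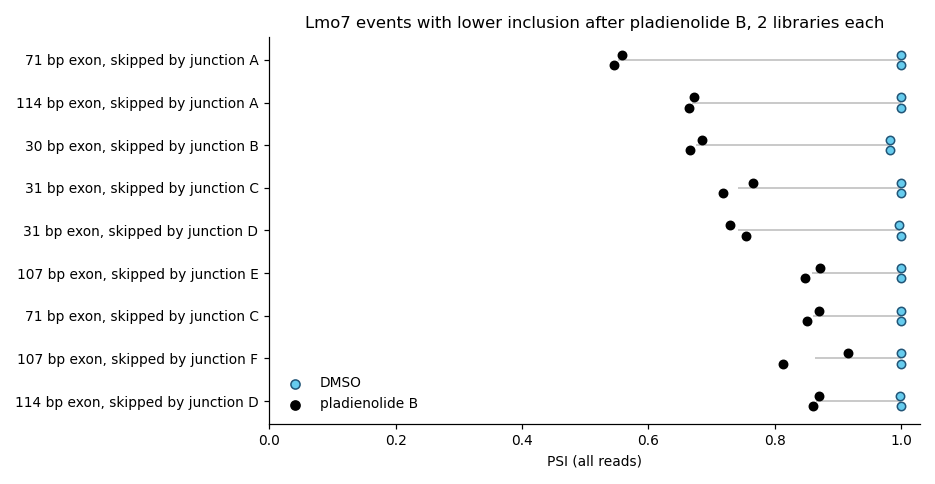
PSI from all reads of the 9 Lmo7 events called after PladB, in 2 DMSO (blue) and 2 PladB (black) libraries, with a grey line from mean to mean. Letters name the skipping junctions, and events with the same letter share skipping reads. All control libraries lie between 0.982 and 1, and the PladB libraries between 0.545 and 0.916.

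The skipping after PladB was unequal between the alleles. Of 43 Lmo7 events tested on alleles in PladB fibroblasts 5 were called (2.69% over the series), and 0 of 12 in DMSO fibroblasts, where 5 had an unadjusted p below 0.05 (2.79% over the series, quasi-binomial model). Limch1 had no event with 20 reads on each allele in either. Against the junction that skips 5 exons, the 71 bp exon had a PSI of 1 and 1 on C57BL/6J, from 163 and 172 reads with exact 95% intervals from 0.967 and 0.969 to 1, and of 0.314 and 0.304 on SPRET/EiJ. All 137 and 154 reads of this junction were assigned to SPRET/EiJ, and the ΔPSI was 0.691 (adjusted p = 1.76e-29). The same reads enter the 114 bp exon, with 1 and 1 against 0.573 and 0.569 (ΔPSI = 0.429, adjusted p = 4.86e-14).

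Other junctions of the stretch were also unequal, in either direction. The junction that skips 4 exons had 3 and 5 reads on C57BL/6J and 23 and 27 on SPRET/EiJ, and against it the 71 bp exon had a ΔPSI of 0.241 (adjusted p = 0.000758). Skipping of the 31 bp exon alone gave 3 and 5 reads on C57BL/6J and 45 and 95 on SPRET/EiJ (ΔPSI = 0.123, adjusted p = 1.96e-05), and PladB replicate 1 alone gave 0.0949, under the limit on size. In the other direction, the junction from the 70 bp exon to the exon at 101880803 had 14 and 32 reads on C57BL/6J and 3 and 15 on SPRET/EiJ, and the 114 bp exon a ΔPSI of -0.138 against it (adjusted p = 0.0246, and 0.145 when all residual degrees of freedom were counted). Skipping of the 114 bp exon alone had 14 and 40 reads on C57BL/6J and 2 and 1 on SPRET/EiJ. Against that junction the ΔPSI of -0.0916 passed the limit on p (adjusted p = 1.65e-05) but not that on size.

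Differences of at least 0.1 that were not called were -0.230 for the 107 bp exon, 0.259 for the 31 bp exon against the 4-exon junction, 0.123 for the 30 bp exon and 0.120 for the 70 bp exon (chr14:101807454-101807523), with adjusted p from 0.0706 to 0.339. The last rests on PladB replicate 2, the only library in which the alleles differed. The 5 called events were not among those with 20 reads on each allele in the controls, so a change of their allelic difference with treatment was not tested. Where both treatments could be tested, 0 of 11 Lmo7 events were called in the quasi-binomial model for an allelic difference that varied with treatment (0.228% over the series). The 30 bp exon was the only one with an unadjusted p below 0.05 there (p = 0.0186, quasi-binomial model), with allelic means of 0.997 and 0.969 under DMSO and 0.754 and 0.631 after PladB.

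**Figure D5:**
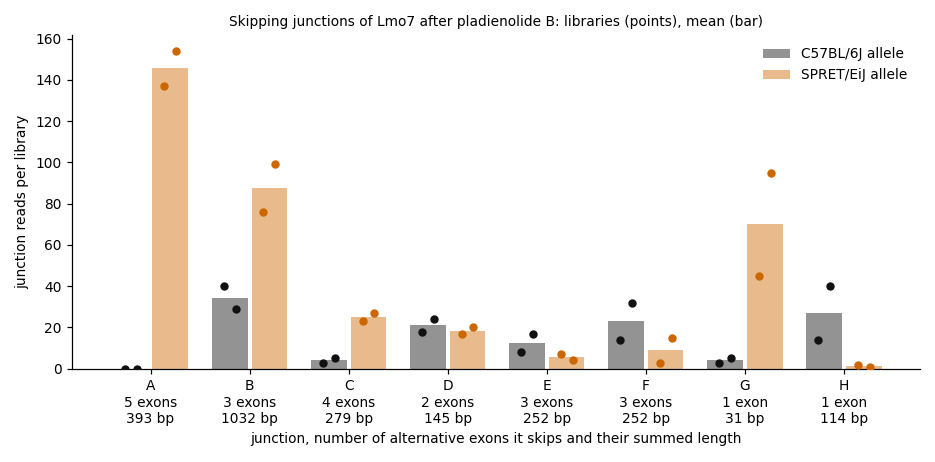
Reads of 8 Lmo7 skipping junctions per PladB library, by allele, with bars for the mean and points for 2 libraries. Letters match those of the PSI plot for PladB and the labels give the number and the summed length of the alternative exons skipped. Junction A, which skips 5 exons, has 0 reads on C57BL/6J and 137 and 154 on SPRET/EiJ, while F and H have more reads on C57BL/6J.

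The share of each allele in the junction reads of a gene was also described, and the allelic differences in splicing above enter it. After PladB the Lmo7 junction that skips 5 exons, with reads on SPRET/EiJ only, counts in 5 events. For Limch1, reads that skip the 78 bp exon also count as inclusion of the 109 bp exon. Summed over the events of a gene, where a read may count in several events, C57BL/6J took 50.3% and 49.8% of the Limch1 reads in the cortex libraries, and over both libraries 48.1% in kidney, 48.2% in lung, 52.8% in spleen, 62.8% in heart and 67.9% in ESC. In PladB fibroblasts it took 99.4% and 96.8%, from 306 against 2 and 366 against 12 reads, while the median gene of chromosome 5 was at 51.2%. Of 7783 autosomal genes with at least 100 such reads in that group, 1.28% were above 90%. Limch1 did not reach 100 allelic reads under DMSO in the tables, so the controls cannot be set beside it. Lmo7 was between 48.4% and 50.5% in the 6 organs, at 53.6% in DMSO fibroblasts and at 41.3% after PladB, and the ESC clones had 64.6% and 33.3%. The fibroblast sums cover 13 events under DMSO and 54 after PladB, so they cannot be set against each other as a change. These shares were looked at after the values were seen, and no test was made of them.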

How the data were processed

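Per the labels and the study's methods, the longer tissue reads were shortened, and reads were aligned with HISAT2 2.0.1 to each parental genome (coordinates in mm10) and assigned to the allele with the better alignment. The authors deposited junction read counts from rMATS for each event, both libraries in one cell and not normalized, with the effective lengths of both forms, which are a score set by rMATS. The largest were 150 and 75 in the tissues and 298 and 149 in the fibroblasts, so the fibroblast reads were longer. The authors also deposited TPM of all genes, from fragments counted once per gene and shared between overlapping genes. Columns of the authors' own comparisons (p, FDR and difference in inclusion level) were not used. A retained intron table holds 1 Limch1 intron with at most 1 inclusion read, and is not used further.

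PSI is (I / length of I) / (I / length of I + S / length of S). Libraries were taken by their position in a cell, which tracked the ratios of TPM between replicates (r from 0.631 to 0.969). Alleles were taken as C57BL/6J first, since 24 of 29 combinations of a maternally expressed imprinted gene and group and 20 of 24 of a paternally expressed one had the expected excess. In ESC, Mest alone had it, with 45.7% of reads on C57BL/6J. Maternally expressed Meg3 and Rian had 34.7% and 28.7% there, and paternally expressed Peg3 had 73.7%. The allele order in ESC was therefore taken from the other groups, and these genes do not check it. No column without a sample was found.

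Inclusion against skipping counts were fitted with a quasi-binomial logistic model in R 4.3.3, with dispersions of at least 1 moderated toward a depth trend by limma 3.58.1, an F test and Benjamini-Hochberg adjustment over all autosomal events with 20 reads in each library (and allele). Events were called at an adjusted p under 0.05 and a ΔPSI of at least 0.1, the interaction on adjusted p alone. Libraries of a group with 1 form only added no residual degrees of freedom. This rule was brought in after blocked fits had given no calls, and it raised the allelic calls from 4 to 6 in tissues and from 4 to 5 in fibroblasts. Log2(TPM + 0.1) was fitted with limma for genes with a mean of at least 1 TPM in a group. P-values rest on the spread between 2 libraries after moderation over all events or genes, and intervals cover counting error only. After PladB the dispersion lay near the depth trend. It was 3.01 for the 282 bp exon before the 720 bp exon, with a PSI of 1 and 0.773. For the 71 bp exon, with 0.559 and 0.545, it was 3.03. Such p-values say little about the spread of a single event.

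The members, lists and named events were chosen with earlier results of these data known. An event was described if it was called or differed by at least 0.1, and among events of 1 exon that with most reads stands for it. Likeness was ranked by Pearson's r and the top 5 are named, except for 1 gene that is not reported here. On simulated counts with 200 changed events the model recovered 84.5% across 7 tissues (11.5% of calls false), 35.5% for alleles in heart, 36.5% for alleles after PladB and 56.5% for PladB against DMSO, and false calls were at most 3.9% in the simulated comparisons other than that across tissues. The changed events had intermediate inclusion, and noise was drawn from the dispersions of the model itself. The recovered shares therefore do not cover exons near full inclusion or full skipping, and the simulation does not test those dispersions. For TPM after PladB 10.7% of simulated calls were false. Replicate numbers were not taken to pair the tissues, since no source ties a number to an animal and not every r of deviations was over 0.1. It was -0.0768 to 0.0551 for PSI. For TPM it was positive in 15 of 15 pairs of organs (0.0303 to 0.169) and over 0.1 in 4, and -0.0336 to 0.0308 in pairs with ESC, while the alleles of a library come from 1 sample (r from 0.0938 to 0.424 in tissues). Alternatives were other read minimums, PSI from raw counts, a prior without trend, single libraries left out, a replicate block, only events whose allelic and total PSI differ by at most 0.1, another pseudocount, no filter and median centring. No genome was used, so exons are not placed in coding sequence or UTRs and no sequence is printed.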

Additional observations from a re-analysis of the deposited data

Results flagged for a closer look

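The 69 bp exon of Limch1 was the only member event whose allelic difference varied between tissues by the interaction test (adjusted p = 0.0152). Heart had a ΔPSI of -0.0392 and kidney one of 0.0284, in 2 of 2 libraries each (adjusted p of each tissue alone 0.00348 and 0.623), from 434 to 698 and from 151 to 206 reads per allele and library.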

How the results depend on the processing

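Of 99 alternatives for the counts of calls, 94 stayed within 1.5 times the reported count. Those that left out 1 library each gave 9 to 10 calls across tissues, 51 to 64 of the pairs of tissues, 8 to 12 after PladB, 31 to 39 of the 42 TPM contrasts and 2 TPM calls after PladB. Without heart 0 events were called for an allelic difference between tissues (quasi-binomial model, 1 of 24 had an unadjusted p below 0.05), and 2 each without kidney and without ESC. With PSI from raw counts 5 events were called after PladB. With log2 TPM centred on the median gene the changes after PladB were 0.83 for Limch1 and 0.13 for Lmo7 and 1 gene was called. The cause was not tested. With a replicate block 10 events were called across tissues, 9 after PladB, 35 TPM contrasts and 2 TPM changes, and with the library as block 6 allelic differences in tissues and 5 in fibroblasts, so no count moved by more than 1.5 times, and it was not run for the pairs of tissues. Of 510 alternatives for single exons and genes 492 kept direction and, where tested, the call. Another 15 lost the call, 1 gained it and 2 changed sign, the TPM changes above. Allelic differences from a single library had no test and count as kept by direction, so no call was assessed for them. Among these, values of 0.0949 for the 31 bp exon after PladB, and of 0.0912 and 0.0881 for the 282 bp and 30 bp exons in lung, were under 0.1. Without both ESC libraries, 10 of 25 events, 45 of 136 pairs and 27 TPM contrasts were called. Pairs with ESC then drop out of the tests, so these counts are not losses against the full fit. This alternative was chosen after seeing the data, as were those for residual degrees of freedom, for the pairs of tissues and some for fibroblasts. Depth limits Limch1 in fibroblasts and both genes in liver, and Lmo7 in spleen, where few events reach 20 reads.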
